A study of Homo sapiens with 4 samples.

Results

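The response of SU-DHL-5 cells to the bromodomain inhibitor JQ1 was read from the gene table of the series, with its transcript table for isoforms. The 2 JQ1 libraries of SU-DHL-5 were set against its 2 DMSO libraries, and every gene with a mean of at least 1 RPKM in either condition was described. RPKM is the number of reads of a gene divided by its length and by the mapped reads of the library, so levels can be compared between genes as well as between libraries. This gave 9316 of the 41507 genes in the table, of which 13269 had a value above 0 in at least 1 of the 4 libraries. A gene was said to rise when each JQ1 library exceeded each DMSO library, to fall when each lay below, and to overlap otherwise.

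SU-DHL-5 is an established line of diffuse large B-cell lymphoma (DLBCL), and the cells were exposed for 6 h, as the labels give it, to 1 µM JQ1 or to the vehicle DMSO. The legend of the study gives a longer exposure, and which of the times holds could not be told from the files. The series has 4 samples in all, the other 2 being Toledo cells, a second DLBCL line, with the same pair of treatments. Each condition of a line is 1 sample with 2 libraries, and neither the labels nor the study say what separates these libraries. There was thus 1 sample per condition (n = 1), differences have no replicate check across cultures, and no p-value is given. What is given beside each difference is the value of every library.

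BET proteins (among them BRD2, BRD3 and the testis form BRDT) bind acetylated lysines on chromatin through their bromodomains and bring the elongation factor P-TEFb to genes, where it releases paused RNA polymerase II. JQ1 occupies the bromodomain pocket and displaces BET proteins from chromatin. Genes under large clusters of enhancers, which in B cells include many genes of B-cell identity, are known to depend on BET proteins the most, and HEXIM1 and histone genes are known markers of exposure to BET inhibitors.

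The libraries of SU-DHL-5 had between 14617583 and 16980339 mapped reads, recovered from the RPKM values themselves, and 95.3% to 95.5% of them lay on genes. The 10 most read genes took 7.89% and 8.21% of the reads in the DMSO libraries and 8.74% and 8.45% in the JQ1 libraries. The identity of the cells was checked against markers. All 6 B-cell markers (among them MS4A1, CD79A, CD79B, PAX5 and CD22) were described, with CD79A at 644 and 562 RPKM in DMSO. Of 8 T-cell markers only CD3E reached 1 RPKM, at 1.09 and 0.934 RPKM with DMSO and 0.120 and 0.0452 with JQ1, and 5 were listed at 0. Of 9 myeloid markers only LYZ did, at 1.09 and 1.20 RPKM with DMSO and 0.200 and 0.0903 with JQ1. Summed over the list, the T-cell markers were at 1.28 and 1.14 RPKM in DMSO and 0.156 and 0.0452 RPKM in JQ1 and the myeloid markers at 1.36 and 1.35 RPKM in DMSO and 0.377 and 0.221 RPKM in JQ1, and the part of such cells in the falls given below was not tested. None of the 6 natural killer cell markers and none of the 7 fibroblast and endothelial markers reached 1 RPKM.

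With JQ1, 3925 of the 9316 genes rose (42.1%) and 3586 fell (38.5%), while 1805 overlapped. These shares are the background for every list below. Most of the differences were small, since 5468 of the genes that rose or fell differed by less than 1.5 times, and the median log2 ratio of all genes was 0.02. The log2 ratio is log2((JQ1 + 0.1)/(DMSO + 0.1)) of the mean RPKM values and makes the change of low genes look smaller. Between the 2 DMSO libraries the median absolute log2 difference of a gene was 0.11, between the 2 JQ1 libraries it was 0.07, and between JQ1 and DMSO it was 0.29. A difference of at least 2 times was seen for 15 genes between the DMSO libraries and for 17 between the JQ1 libraries.

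Large changes went down more often than up. At least 2 times higher were 171 of the genes that rose (1.84% of all described) and at least 2 times lower were 585 of those that fell (6.28%). Beyond 4 times, these numbers were 27 and 148, and beyond 8 times 10 and 37. The nearest JQ1 and DMSO libraries were themselves at least 2 times apart for 107 genes that rose and 467 that fell. The filter admitted 196 genes through their JQ1 mean alone and 367 through their DMSO mean alone, so these had to differ. Among the 9094 genes with a mean of at least 1 RPKM over all 4 libraries, 153 rose and 504 fell at least 2 times. RPKM values are relative to the mapped reads of a library, so a change in the total RNA per cell does not appear in them, and fewer cells of a kind cannot be told apart from less RNA per cell.

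**Figure D1:**
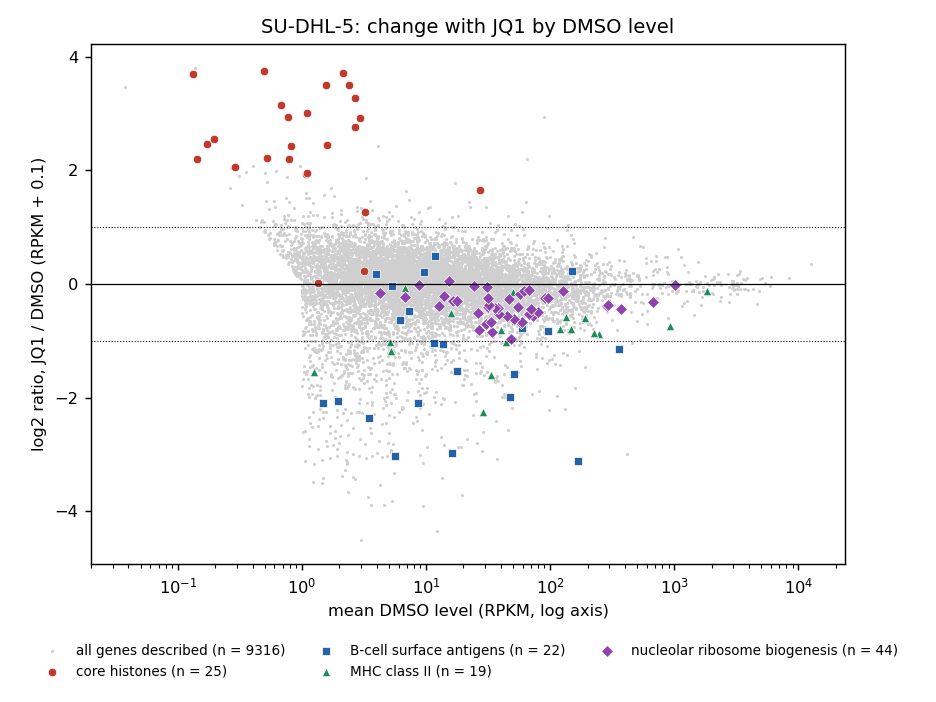
Mean DMSO level of each gene in SU-DHL-5 (x axis, RPKM, log scale) against the log2 ratio of JQ1 over DMSO (y axis, from RPKM + 0.1), with dotted lines at 2 times in either direction. Core histone genes (red circles) lie at the top up to a log2 ratio of 3.75, B-cell surface antigens (blue squares) reach down to −3.12, MHC class II genes (green triangles) have a median of −0.80 and nucleolar ribosome biogenesis genes (purple diamonds) form a narrow band around −0.38.

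Of the 171 genes that rose at least 2 times, 25 were core or linker histone genes. The clusters on chromosomes 1 and 6 hold many intronless copies of the genes for H2A, H2B, H3 and H4, the core of the nucleosome, and their transcripts mostly end in a stem-loop without a poly(A) tail, so libraries from mRNA read the polyadenylated part of them. Of the 81 core histone genes in the table, 28 were listed at 0 in SU-DHL-5, 28 were below 1 RPKM and 25 were described. Of these 25, 23 rose, all of them at least 2 times, none fell, and 2 (HIST1H2BL and HIST1H4J) overlapped. The median log2 ratio was 2.46, and 1.69 when 1 RPKM was added in place of 0.1. Since 11 of the 25 passed the filter through their JQ1 level alone, the 14 with at least 1 RPKM in DMSO are given apart. Of these, 12 rose and none fell, with a median of 2.61. Among all 53 with any value, 35 rose and 2 fell, and the latter were HIST1H2BI, at 0.146 and 0.135 RPKM with DMSO, and HIST1H2AB, at 0.134 and 0.124 RPKM, both listed at 0 with JQ1.

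The linker histone HIST1H1C (GRCh38 chromosome 6, 26055740 to 26056471), which binds the DNA between nucleosomes, had the highest level with JQ1 among the core and linker histone genes listed here. It had 82.8 and 95.2 RPKM with DMSO and 682 and 679 RPKM with JQ1, 7.64 times as much, from 2135 reads over both DMSO libraries and 15504 over both JQ1 libraries. H1FX, a linker histone with an ordinary polyadenylated transcript, went from 98.5 and 97.4 to 229 and 222 RPKM, with a log2 ratio of 1.20. In both genes the 2 libraries of a condition lay close together compared with the distance between conditions.

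Among core histones, HIST1H2BK had the highest DMSO level, 28.5 and 25.8 RPKM, and went to 83.9 and 88.1 RPKM with JQ1. HIST2H2BE (GRCh38 chromosome 1, 149884460 to 149886682) had the largest log2 ratio of the list, 3.75, from 0.401 and 0.583 to 7.96 and 7.82 RPKM. HIST1H2AC went from 2.57 and 2.80 to 27.0 and 26.8 RPKM and HIST1H2BD from 2.26 and 3.58 to 23.5 and 22.3 RPKM. All 4 encode H2A or H2B proteins. The H3 gene HIST1H3H went from 1.08 and 1.12 to 10.5 and 8.53 RPKM. HIST2H2AA3 and HIST2H2AA4, and likewise HIST2H4A and HIST2H4B, are near-identical pairs whose reads could have been split between copies, so their single values are uncertain. Over the 81 core histone genes together, the summed level was 62.4 and 64.7 RPKM in DMSO and 317 and 325 RPKM in JQ1.

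**Figure D2:**
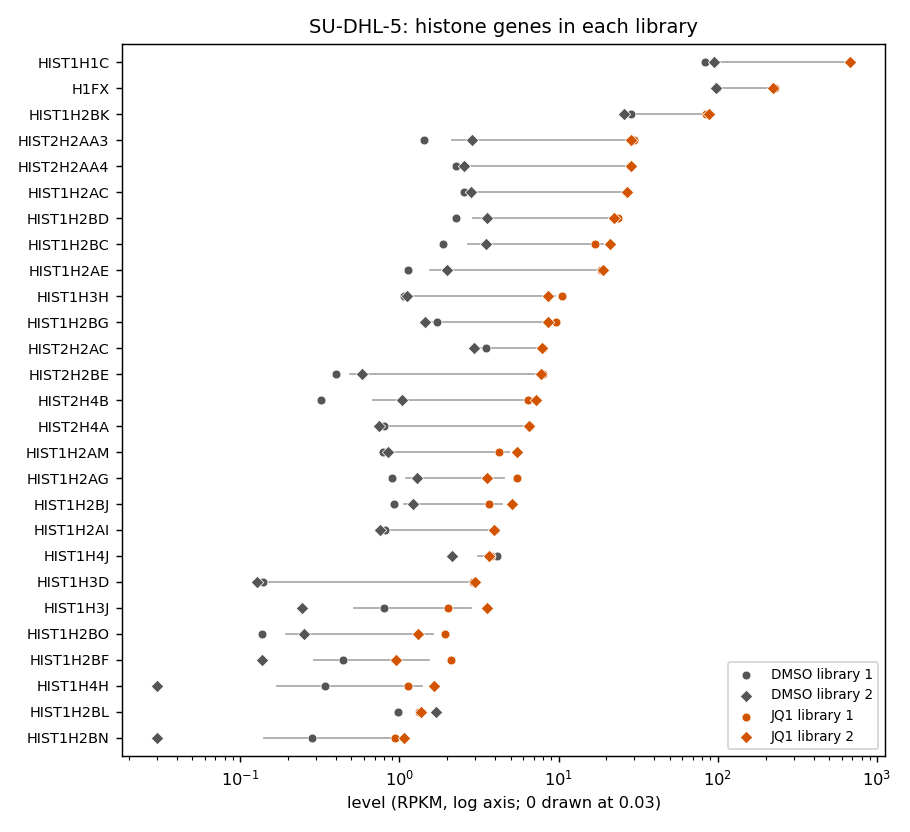
Level of each of the 25 core and 2 linker histone genes described (x axis, RPKM, log scale, 0 drawn at 0.03) in the 2 DMSO libraries (gray) and the 2 JQ1 libraries (orange) of SU-DHL-5, with circles for library 1, diamonds for library 2 and lines between the means. The JQ1 symbols lie to the right of the DMSO symbols for every gene except HIST1H2BL and HIST1H4J, where they overlap.

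The promoters of these genes were looked at because the members moved together. RefSeq windows of 250 bases before the start, on GRCh38.p14, were matched to 21 of the 25 core histone genes described and to 7761 of the 9316 genes. Each was searched on both strands for CCAAT, for TATAAA and for ATTTGCAT, the octamer that is recognised by POU domain factors and is typical of H2B promoters. CCAAT was in 17 of the 21 histone windows (81.0%), against 37.6% of all windows. TATAAA was in 16 (76.2%), against 4.79%, and ATTTGCAT in 10 (47.6%), against 1.30%. These are matches of letters, and adjacent H2A and H2B genes face each other across one shared promoter, so the windows are not independent. HIST2H4A, HIST2H4B and HIST1H4H rose and held none of the 3 motifs. HIST1H2BL, which overlapped, held CCAAT and TATAAA, and HIST1H4J, which also overlapped, held TATAAA. The shares set histone promoters against all promoters, whatever the change with JQ1. Whether these motifs bear on that change was not tested. The windows of the 3 genes with the largest log2 ratios among those that hold all 3 motifs are shown 5′ to 3′ on the strand of the gene, with the matches on either strand in capitals.
HIST2H2BE, chr1:149886683-149886932, minus strand: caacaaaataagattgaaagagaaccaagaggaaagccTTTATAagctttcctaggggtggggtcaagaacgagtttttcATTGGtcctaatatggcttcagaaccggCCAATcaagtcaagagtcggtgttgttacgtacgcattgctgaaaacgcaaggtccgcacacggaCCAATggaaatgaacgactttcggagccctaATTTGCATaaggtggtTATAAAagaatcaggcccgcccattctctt
HIST1H2AE, chr6:26216671-26216920, plus strand: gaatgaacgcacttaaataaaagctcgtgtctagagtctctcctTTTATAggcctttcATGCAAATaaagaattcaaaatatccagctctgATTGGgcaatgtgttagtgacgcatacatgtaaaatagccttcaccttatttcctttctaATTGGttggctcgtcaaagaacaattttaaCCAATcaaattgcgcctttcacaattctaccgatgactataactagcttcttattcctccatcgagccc
HIST1H2AC, chr6:26123922-26124171, plus strand: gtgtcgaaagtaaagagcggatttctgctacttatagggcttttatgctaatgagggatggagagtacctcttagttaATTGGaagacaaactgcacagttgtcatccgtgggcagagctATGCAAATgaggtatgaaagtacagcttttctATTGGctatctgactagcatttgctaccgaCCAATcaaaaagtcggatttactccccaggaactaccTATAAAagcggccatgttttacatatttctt
In the window of HIST2H2BE the octamer starts 46 bases and the nearer TATA box 30 bases before the start of the transcript. In that of HIST1H2AC the TATA box starts 31 bases before it and the nearest CCAAT box 68 bases. The CCAAT boxes of HIST1H2AE start 159, 99 and 69 bases before the start. The TATA and octamer matches of HIST1H2AE lie on the opposite strand, from 206 and 192 bases before the start.

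HEXIM1 (GRCh38 chromosome 17, 45147317 to 45152101), which holds P-TEFb in an inactive complex with 7SK RNA, had the largest rise in the P-TEFb list, with JQ1 levels of 22.4 and 23.0 RPKM and a log2 ratio of 2.43 (95% exact binomial interval from the reads 2.34 to 2.59, which covers counting error only). Its relative HEXIM2 went the other way, from 4.24 and 4.48 to 2.35 and 2.42 RPKM, with a log2 ratio of −0.84. ELL2, a subunit of the super elongation complex, rose from 2.07 and 1.94 to 4.54 and 4.38 RPKM. Of the 17 genes of this list described, 10 rose and 4 fell, with a median log2 ratio of 0.15. The kinase CDK9 and its cyclin CCNT1 rose by little, with log2 ratios of 0.25 and 0.17. Besides HEXIM2, those that fell were the subunits NELFA, NELFCD and NELFE of the negative elongation factor, which holds the paused polymerase, with log2 ratios of −0.73, −0.47 and −0.29.

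Of the targets of JQ1 themselves, BRD2 rose from 32.0 and 30.6 to 52.6 and 50.9 RPKM, 1.65 times. BRD3 rose from 3.75 and 3.66 to 3.96 and 4.21 RPKM. BRDT was listed at 0.

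MYC, the transcription factor most often followed as a target of BET inhibition, fell by little in these libraries. Its level was 44.1 and 40.9 RPKM with DMSO and 35.2 and 34.4 RPKM with JQ1, a log2 ratio of −0.29. Larger ratios were seen among the MXD proteins, which compete with MYC for its partner MAX. MXD4 rose from 11.0 and 9.83 to 27.4 and 25.5 RPKM, with a log2 ratio of 1.34, and MXD1 from 1.95 and 1.81 to 3.45 and 3.09 RPKM. MAX itself had a log2 ratio of 0.09. Over the 10 genes of the MYC network described, 5 rose and 4 fell. For MYC, the study reports lower mRNA by quantitative PCR and lower protein after JQ1 in each DLBCL line measured, SU-DHL-5 among them. The protein was measured after a longer exposure than either source gives for these libraries. The times of the PCR were not matched to the libraries here.

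Genes for the making of ribosomes in the nucleolus, many of them known targets of MYC, fell by small amounts. All 44 genes of the list were described, 38 fell, 6 overlapped and none rose, and none fell by 2 times. The median log2 ratio was −0.38 and the lowest −0.96. GAR1, a protein of the box H/ACA particles that modify ribosomal RNA, went from 48.5 and 47.3 to 23.7 and 25.4 RPKM. MYBBP1A, WDR74 and BYSL, factors of ribosomal RNA synthesis and subunit assembly, had log2 ratios of −0.80, −0.84 and −0.71. Fibrillarin (FBL), which methylates ribosomal RNA, went from 369 and 371 to 265 and 278 RPKM, and nucleolin (NCL) from 711 and 641 to 529 and 557 RPKM. NPM1, the most abundant of them, had 951 and 1061 RPKM with DMSO and 1016 and 983 with JQ1, which overlap.

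The genes of the finished ribosome's proteins mostly overlapped. Of 84 cytosolic ribosomal protein genes described, 16 rose, 25 fell and 43 overlapped, with a median log2 ratio of −0.01, whose sign differed between libraries 1 and 2. The range went from −0.30 for RPL39L to 0.34 for RPL36. Windows were matched to 36 of the 44 nucleolar genes and searched for CACGTG, the E-box that MYC and MAX can bind. In the 250 bases before the start, 3 of 36 (8.33%) held it, against 9.17% of all windows. When the 50 bases after the start were added, 14 of 36 (38.9%) held it, against 10.6% of all windows of 300 bases.

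**Figure D3:**
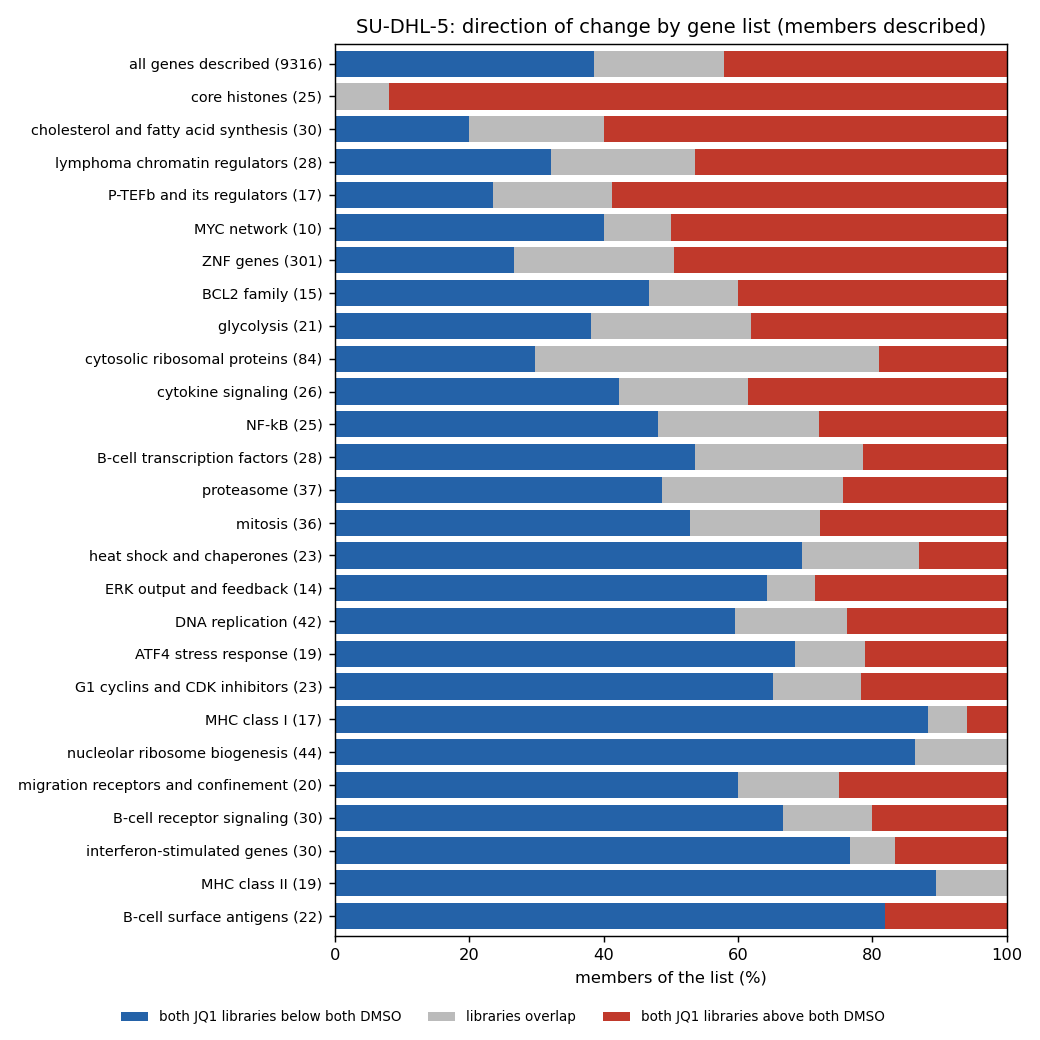
Share of the described members of each gene list (number in brackets) with both JQ1 libraries of SU-DHL-5 below both DMSO libraries (blue), overlapping (gray) or above (red), in percent, for most lists of at least 10 such members, in order of their median log2 ratio, with all 9316 genes at the top. Core histones show no blue, and MHC class II and nucleolar ribosome biogenesis genes show no red, against 42.1% red and 38.5% blue over all genes.

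Among lists with at least 10 genes described, B-cell surface antigens had the lowest median log2 ratio. Of 22 B-cell surface antigens described, 18 fell and 4 rose, 13 fell at least 2 times and none rose that much, and the median log2 ratio was −1.10. CD27 (GRCh38 chromosome 12, 6444885 to 6451718), a TNF receptor family member of germinal center and memory B cells, had 173 and 161 RPKM with DMSO and 19.7 and 18.6 RPKM with JQ1, 8.70 times less, from 7197 reads over both DMSO libraries and 786 over both JQ1 libraries. MS4A1, which encodes CD20, the target of rituximab, fell from 51.0 and 43.5 to 11.7 and 12.0 RPKM. CD52, the target of alemtuzumab, fell from 350.2 and 362 to 158 and 165 RPKM. In all 3 the highest JQ1 library lay below the lowest DMSO library by more than 2 times.

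Lower in level, CD180, a Toll-like receptor relative, fell from 5.93 and 5.28 to 0.612 and 0.582 RPKM, and its partner family gene LY86, from 17.4 and 18.4 to 5.58 and 6.74 RPKM. VPREB3, a chaperone of the pre-B cell receptor, fell from 13.5 and 18.8 to 2.18 and 1.75 RPKM. TNFRSF17, the receptor BCMA, had a log2 ratio of −2.36, and the Fc receptor-like genes FCRLA, FCRL3 and FCRL5 had −1.58, −2.09 and −2.05. The 4 that rose were CD47, the signal that restrains phagocytosis, with a log2 ratio of 0.49, CD70, the ligand of CD27, with 0.23, TNFRSF13C, the BAFF receptor, with 0.20, and SEMA4B with 0.18. CD70 stood at 142 and 158 RPKM with DMSO and 174 and 178 RPKM with JQ1, so the receptor of this pair fell while the ligand rose.

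The B-cell receptor passes its signal through the CD79 chains, the kinases LYN, SYK and BTK and the adaptor BLNK to PLCG2. Of 30 genes of this pathway described, 20 fell and 6 rose, with a median log2 ratio of −0.66, and 13 fell at least 2 times. CD79A fell to 370.0 and 367 RPKM, with a log2 ratio of −0.71, while CD79B had 235 and 217 RPKM with DMSO and 228 and 226 with JQ1, which overlap. BLNK fell from 57.5 and 58.1 to 21.0 and 21.3 RPKM, BTK from 30.6 and 29.7 to 12.0 and 13.0 RPKM and SYK from 24.4 and 25.9 to 14.3 and 13.6 RPKM. PIK3CD, the lymphocyte PI3-kinase subunit, had a log2 ratio of −1.02.

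PTPN6, the phosphatase SHP-1, had 122 and 103 RPKM with DMSO and 27.7 and 29.6 RPKM with JQ1, 3.92 times less. The inhibitory receptors CD72 and CD22 fell from 8.84 and 8.91 to 1.05 and 0.982 RPKM and from 30.2 and 26.6 to 10.8 and 9.63 RPKM, and the adaptors SLA and LAT2 had log2 ratios of −3.06 and −3.02. The lipid phosphatase INPP5D (SHIP1) had −1.10. The 6 genes that rose included PLCG2, from 83.0 and 78.5 to 109.8 and 113 RPKM, and the kinases LYN, FYN and PRKCB, with log2 ratios of 0.25, 0.72 and 0.62. The adaptors SLA and LAT2, CD72 and PTPN6 had the 4 lowest log2 ratios of the list.

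**Figure D4:**
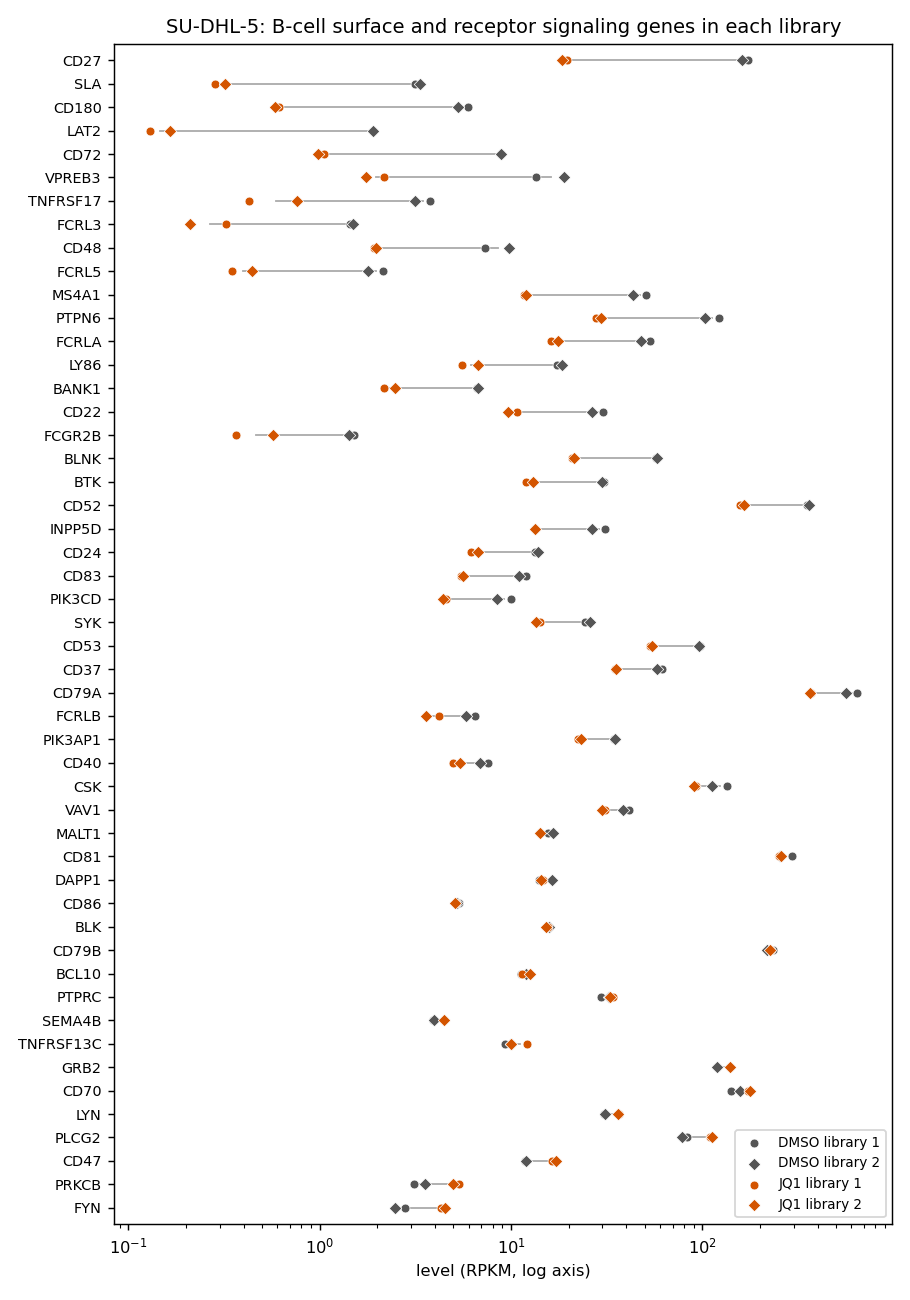
Level of most of the B-cell surface antigens and B-cell receptor signaling genes described (x axis, RPKM, log scale) in the 2 DMSO libraries (gray) and 2 JQ1 libraries (orange) of SU-DHL-5, ordered by log2 ratio with the largest fall at the top, with circles for library 1, diamonds for library 2 and lines between the means. CD27 at the top goes from 173 and 161 to 19.7 and 18.6 RPKM, CD79B overlaps, and FYN at the bottom has a log2 ratio of 0.72.

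Transcription factors of B cells had a median nearer to 0. Of 28 described, 15 fell, 6 rose and 7 overlapped, with a median log2 ratio of −0.09, and 5 fell at least 2 times. SPI1, the ETS factor PU.1, fell from 89.6 and 82.2 to 34.3 and 35.1 RPKM, and MYB fell from 11.9 and 11.6 to 4.36 and 4.13 RPKM. XBP1, ETV6 and AFF3 had log2 ratios of −1.20, −1.17 and −1.50. POU2AF1, the octamer coactivator OCA-B, had 94.7 and 85.8 RPKM with DMSO and 46.8 and 46.7 with JQ1, and PAX5 fell from 9.56 and 9.46 to 6.70 and 5.46 RPKM. Among the 6 that rose, BCL6 went from 38.0 and 38.3 to 46.3 and 47.3 RPKM and MEF2B from 334 and 290.4 to 389.7 and 387 RPKM, while IRF8 had a log2 ratio of 0.09. EBF1, RUNX3 and POU2F2 overlapped.

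Genes of antigen presentation through MHC class II fell for the most part. Of the 19 genes, 17 fell, 2 overlapped and none rose, and the median log2 ratio was −0.80. CIITA, the coactivator that drives class II genes, fell from 5.56 and 4.81 to 2.22 and 2.23 RPKM. HLA-DRA, the chain shared by the DR molecules, fell from 938 and 900.1 to 555 and 548 RPKM, and HLA-DOB, which tempers peptide loading, from 29.6 and 28.0 to 5.65 and 6.33 RPKM, with a log2 ratio of −2.25. CTSS, the protease that trims the invariant chain, fell from 32.9 and 33.9 to 10.9 and 11.1 RPKM. The invariant chain CD74 itself, the most abundant gene of the list, had 1970.0 and 1669 RPKM with DMSO and 1649 and 1676 with JQ1, which overlap. HLA genes differ between people and have close paralogs such as HLA-DRB1 and HLA-DRB5, whose reads could have been assigned to each other.

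For MHC class I, 15 of 17 genes fell, 1 rose and the median log2 ratio was −0.34. The 4 genes that fell at least 2 times were HLA-F, with a log2 ratio of −1.84, the peptidase ERAP2, with −1.26, and the immunoproteasome subunits PSMB8, from 108 and 113 to 41.1 and 42.1 RPKM, and PSMB10, from 105 and 108 to 43.8 and 45.6 RPKM. The gene that rose was B2M, the common light chain of class I, from 822 and 928 to 1242 and 1196 RPKM.

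Interferon-stimulated genes, which cells switch on through STAT and IRF factors in response to viruses, fell in 23 of the 30 members described, 5 rose, and the median log2 ratio was −0.75. A fall of at least 2 times was seen in 13. Among members of at least 5 RPKM the median log2 ratio was −0.4. TRIM22 fell from 24.5 and 26.0 to 6.20 and 6.99 RPKM, USP18, which restrains the interferon receptor, from 7.99 and 7.75 to 1.35 and 1.39 RPKM, and MX1 from 4.54 and 4.26 to 0.897 and 0.540 RPKM. IFITM1 and IFITM2 block virus entry and are close paralogs. IFITM1 fell from 3.46 and 3.86 to 0.338 and 0.382 RPKM, with a log2 ratio of −3.03. IFITM2 was at 2.09 and 2.50 RPKM with DMSO and at 0.332 and 0 with JQ1, the latter over 4 reads, and the log2 ratio of IFITM2 was −2.34 in library 1 alone and −4.7 in library 2 alone. Most of these genes were low, and BST2 was the highest of those that fell, from 117 and 108 to 79.2 and 79.6 RPKM.

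Of the transcription factors of this response, some rose and others fell. IRF7, the master regulator of the interferon response, rose from 3.40 and 3.11 to 12.0 and 12.3 RPKM, with a log2 ratio of 1.87, and STAT2 had a log2 ratio of 0.40. SAMHD1, which degrades nucleotides, rose from 15.6 and 12.8 to 27.2 and 28.7 RPKM, and ISG15 had 0.13. IRF1 and IRF9 fell, with −0.29 and −0.26.

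Of the cytokine genes, 4 fell at least 2 times. LTA, LTB and TNF, neighbouring genes of the TNF family on chromosome 6, went from 4.56 and 4.33 to 0.604 and 0.298 RPKM, from 44.6 and 40.5 to 13.2 and 15.1 RPKM and from 1.14 and 1.34 to 0.506 and 0.286 RPKM. IL10 fell from 9.38 and 9.76 to 2.49 and 2.44 RPKM. Receptors and kinases were mixed, with IL2RG at a log2 ratio of −0.88 and IL4R at 0.50, and the PIM kinases PIM1 and PIM2 at 0.65 and 0.73. Over the 26 genes of the list described, 10 rose and 11 fell, and the median was −0.03. In the NF-kB list, 7 of 25 rose and 12 fell, with a median of −0.08. Its largest falls were in CFLAR, the inhibitor of caspase-8, from 2.995 and 2.75 to 1.10 and 1.17 RPKM, and TRAF1, from 3.38 and 2.85 to 1.37 and 1.26 RPKM, while RELA and NFKB1 overlapped.

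The study asked how BET inhibition restrains the migration of lymphoma cells, and adhesion and homing receptors were followed for that reason. Of 20 genes of the list described, 12 fell, 8 of them at least 2 times, 5 rose, and the median log2 ratio was −0.62. Among members of at least 5 RPKM this median was −0.28. The integrin chains of lymphocytes fell, ITGAL (CD11a) from 3.29 and 3.14 to 0.349 and 0.394 RPKM and its partner ITGB2 (CD18) from 16.5 and 15.0 to 7.32 and 8.03 RPKM. ICAM3, a ligand of this integrin, fell from 3.04 and 2.88 to 0.647 and 0.653 RPKM. The integrin chain ITGB1, which pairs with receptors for the extracellular matrix, rose from 14.5 and 14.9 to 24.1 and 23.7 RPKM.

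Confinement of B cells to the germinal center runs through S1PR2 and GNA13, which restrain movement. S1PR2 fell from 46.5 and 47.2 to 30.6 and 25.9 RPKM, while GNA13 had 28.5 and 28.2 RPKM with DMSO and 29.5 and 28.2 with JQ1, which overlap. The chemokine receptor CXCR4 overlapped too, at 115 and 132 RPKM with DMSO and 133 and 122 with JQ1. RGS genes, which switch off chemokine receptor signals, went both ways, with RGS1, RGS16 and RGS13 at log2 ratios of −1.52, −1.12 and −0.50 and RGS2 at 0.19.

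Of the genes of actin assembly, WAS fell from 60.0 and 51.7 to 26.8 and 26.1 RPKM, its partner WIPF1 from 45.9 and 44.7 to 16.7 and 16.2 RPKM and the actin-binding coronin CORO1A from 585 and 464 to 259.5 and 273 RPKM.

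Genes read as output of the RAS and ERK pathway were followed too. Of 14 described, 9 fell and 4 rose, with a median of −0.22. ETV4 and ETV5, ETS factors induced by ERK, fell from 9.13 and 7.57 to 1.67 and 1.46 RPKM and from 5.95 and 5.64 to 2.96 and 2.99 RPKM. EGR1 fell from 22.3 and 21.3 to 15.6 and 13.1 RPKM and JUN from 3.20 and 3.28 to 2.04 and 1.73 RPKM. JUND rose from 46.1 and 45.8 to 109 and 103 RPKM, and IER5 from 11.2 and 11.7 to 19.0 and 18.8 RPKM. Within one family of factors, JUN fell, JUNB overlapped and JUND rose.

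Members of the BCL2 family, which set the threshold of apoptosis, changed on both sides of it. Of 15 described, 6 rose and 7 fell, and the median was 0.04, below 0 in library 2 alone. Among the BH3-only genes, which promote death, BIK rose from 145 and 126 to 261 and 261 RPKM, BCL2L11 (BIM) from 8.40 and 8.86 to 16.8 and 16.0 RPKM and BMF from 0.760 and 0.766 to 1.85 and 1.73 RPKM, while BID and BAD fell, with log2 ratios of −0.73 and −0.68. Of the survival genes, MCL1 rose from 155 and 150.0 to 259.9 and 265 RPKM. BCL2A1 fell from 5.27 and 6.43 to 1.54 and 2.25 RPKM, and BCL2L2 (BCL-W) and BCL2L1 (BCL-XL) had −1.20 and −0.42.

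Of the genes that control entry into the cell cycle from G1, 23 were described. Of these, 15 fell and 5 rose, with a median of −0.24. CCND3, the D-type cyclin of germinal center B cells, fell from 132 and 110.0 to 43.8 and 46.1 RPKM, with a log2 ratio of −1.42. E2F2 and E2F8 had −1.02 and −1.04, and the phosphatase CDC25A −0.71. Among the CDK inhibitors, CDKN1A (p21) fell from 22.5 and 20.7 to 11.1 and 11.5 RPKM, while CDKN2D (p19) and CDKN2C (p18) rose from 9.17 and 10.3 to 19.6 and 16.3 RPKM and from 25.5 and 30.9 to 42.4 and 43.0 RPKM.

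All 42 DNA replication genes were described, with 25 that fell, 10 that rose and a median of −0.23. The helicase subunits MCM5, MCM7 and MCM2 fell from 179 and 161 to 85.6 and 88.7 RPKM, from 235 and 208 to 124 and 132 RPKM and from 125 and 116 to 73.8 and 77.9 RPKM. POLE2 was the one that fell at least 2 times, and PCNA and TYMS overlapped. Of 36 mitotic genes, 19 fell and 10 rose, with a median of −0.12. UBE2C, the ubiquitin-conjugating enzyme of the anaphase-promoting complex, fell from 94.6 and 93.8 to 43.4 and 44.5 RPKM. MKI67, CDK1 and CDC20 overlapped.

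Genes of cholesterol and fatty acid synthesis rose more often than they fell. Of 30 genes described, 18 rose and 6 fell, with a median of 0.25. INSIG1, which retains the sterol sensor SCAP in the endoplasmic reticulum, rose from 59.4 and 67.7 to 176 and 171 RPKM, with a log2 ratio of 1.45. The enzymes TM7SF2 and LSS rose from 19.7 and 16.8 to 43.0 and 40.9 RPKM and from 15.9 and 12.7 to 30.1 and 30.7 RPKM, and SCD, which desaturates fatty acids, from 40.1 and 34.4 to 70.7 and 72.9 RPKM. ELOVL6, which elongates fatty acids, had the largest fall, −0.83.

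The arrestin-domain genes that respond to nutrients rose in 4 of 5 cases. TXNIP, an inhibitor of glucose uptake, rose from 12.6 and 14.5 to 29.7 and 25.2 RPKM, and ARRDC3 and ARRDC4 had 0.88 and 0.88. Glycolysis genes were divided, 8 rising and 8 falling of 21, with a median of 0.03 that lay below 0 in library 2 alone. The glucose transporter SLC2A3 had the largest fall, from 4.66 and 5.53 to 1.94 and 1.76 RPKM, while LDHA and PKM had 0.39 and 0.49.

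Stress and proteostasis genes leaned downwards by small amounts. Heat shock and chaperone genes fell in 16 of 23 members and rose in 3, with a median of −0.18, none by 2 times. HSPD1, the mitochondrial chaperonin, fell from 562 and 547 to 379 and 391 RPKM. ATF4 stress genes fell in 13 of 19 and rose in 4, with a median of −0.23. PHGDH and PSAT1, enzymes of serine synthesis, fell from 152 and 134 to 77.5 and 79.6 RPKM and from 83.4 and 82.4 to 42.1 and 42.9 RPKM, and DDIT4, an inhibitor of mTOR signaling, rose from 115 and 178 to 270.2 and 261 RPKM. Proteasome genes fell in 18 of 37 and rose in 9, with a median of −0.12, and the 2 that fell at least 2 times were the immunoproteasome subunits given above.

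Chromatin regulators that are often mutated in lymphoma or targeted in it included none that changed by 2 times. Of 28 described, 13 rose and 9 fell, with a median of 0.15. KMT2C, SETD1B and EP300, which methylate or acetylate histone H3, had log2 ratios of 0.86, 0.79 and 0.56. HDAC7 fell from 32.3 and 30.8 to 19.8 and 19.3 RPKM, and EZH2 overlapped, at 33.2 and 34.6 RPKM with DMSO and 34.2 and 35.0 with JQ1. Of the large family of zinc finger genes with a ZNF symbol, 301 were described of 562 in the table. Of these, 149 rose and 80 fell, with a median of 0.12, and 2 rose and 5 fell at least 2 times.

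The genes with the widest gap between the nearest libraries of the conditions were also taken, 20 in each direction. On the upper side 15 of the 20 were histone genes, and the others were HEXIM1, DHRS2, DCXR, PEG10 and TRIM39-RPP21. DCXR, the xylulose reductase of carbohydrate metabolism, was the most abundant of these 5, at 68.4 and 61.3 RPKM with DMSO and 283 and 311 RPKM with JQ1. DHRS2, a short-chain dehydrogenase, went from 0.0722 and 0.200 to 3.19 and 3.23 RPKM, and PEG10, an imprinted gene derived from a retrotransposon, from 0.922 and 0.995 to 4.35 and 4.43 RPKM. TRIM39-RPP21 is a readthrough of a pair of neighbouring genes, and its values, 0 and 0.0752 RPKM with DMSO and 1.24 and 1.62 with JQ1, are uncertain because its reads overlap theirs. DHRS2, PEG10 and TRIM39-RPP21 passed the filter through their JQ1 mean alone, so they had to differ. The same holds for HIST1H3D, HIST2H2BE, HIST2H4A, HIST2H4B, HIST1H2AM and HIST1H2AI among the 15 histone genes. The 15 also include the near-identical pairs HIST2H2AA3 and HIST2H2AA4, and HIST2H4A and HIST2H4B.

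On the lower side, TNFSF11, which encodes the cytokine RANKL, had the widest gap, from 3.11 and 2.83 to 0.0445 and 0.0251 RPKM, and its log2 ratio was −4.51, while the counting interval from its reads, which has no 0.1 added and so lies lower, was −8.68 to −4.83. ICA1 fell from 12.4 and 11.9 to 0.634 and 0.370 RPKM and PTAFR, the receptor of platelet-activating factor, from 9.62 and 9.42 to 0.521 and 0.558 RPKM. LCK, a SRC family kinase best known from T cells, fell from 20.5 and 18.4 to 1.67 and 1.09 RPKM, and FGR, a kinase of the same family, from 3.54 and 4.96 to 0.293 and 0.260 RPKM. LAPTM5, a lysosomal protein of blood cells, fell from 14.4 and 12.3 to 1.14 and 1.19 RPKM. The immune receptor PVRIG, the adaptor DOK2 and the pore-forming MPEG1 had log2 ratios of −3.88, −3.48 and −3.51, and the reads of DOK2 gave a counting interval, again without the 0.1, of −11.46 to −3.62. The remaining members of the 20 were B3GNT6, ARHGAP9, PLD4, CGA, RTP4, PARD3, CD27, PYHIN1, CD72, DTNA and SLA, with log2 ratios between −3.89 and −3.01. All of the 20 except LCK, LAPTM5, CD27 and CD72 passed the filter through their DMSO mean alone, so they had to differ.

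Among genes of at least 100 RPKM in either condition, the 5 with the widest gap upwards included HIST1H1C, DCXR, INSIG1 and H1FX. The 5 with the widest gap downwards were CD27, CHI3L2, VAMP8, PTPN6 and HOPX. CHI3L2, a chitinase-like protein, fell from 441 and 397 to 53.8 and 50.8 RPKM and had the highest DMSO level of the 5. VAMP8, a protein of vesicle fusion, fell from 131 and 132 to 28.7 and 28.5 RPKM, and HOPX, a small homeodomain protein, from 145 and 171 to 48.2 and 40.3 RPKM.

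The response varied with the size of genes, although by little. With the genes divided by genomic span into 5 groups of like size, the median log2 ratio went from −0.08 in the shortest to 0.12 in the longest, and the share that rose from 33.1% to 51.8%. By the length of the exons it went from −0.07 to 0.13. Of the 1359 genes that span at least 100 kb, 50.8% rose and 32.2% fell. The response also varied with the DMSO level. With the genes divided by mean DMSO RPKM, the median went from 0.14 in the lowest group to −0.08 in the highest. The share that rose went from 48.0% to 31.2%, and the share that fell at least 2 times from 11.5% to 2.95%. The lowest of these groups holds genes that passed the filter through their JQ1 mean alone. Span and exon length are related to each other, and what span, exon length and DMSO level each contribute was not tested.

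Isoforms were followed as the share of each transcript in the summed level of its gene, for the 4691 genes with at least 2 transcripts and at least 5 RPKM in each condition. A share was called when it moved by at least 20 percentage points and the libraries did not overlap. This held for 269 of 22363 transcripts (1.20%), in 192 genes, of which 160 changed less than 1.5 times in summed level. The 2 DMSO libraries differed by at least 20 points between themselves in 443 transcripts and the 2 JQ1 libraries in 355. How reads were divided among transcripts is not given in the sources used here.

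ALDOA, the glycolytic aldolase, was the most abundant of the 8 genes with the widest gaps in share. Its transcript that starts at chr16:30065673 held 63.0% and 63.3% of the gene in DMSO and 95.8% and 95.3% in JQ1, while the one that starts at chr16:30064279 went from 30.7% and 30.3% to 3.07% and 3.46%. CD86, a costimulatory ligand of T cells, changed its main transcript while its level was 5.32 and 5.21 RPKM with DMSO and 5.14 and 5.08 with JQ1. The transcript from chr3:122055362 went from 28.6% and 27.6% to 79.4% and 62.8%, and the shorter one from chr3:122077849 from 68.0% and 50.4% to 16.6% and 12.0%. In PRR7 the transcript from chr5:177448325 went from 85.4% and 69.1% to 8.45% and 9.40%. The others of the 8 were FOXRED2, PISD, ZNF48, SERPINB6 and LIMS1. Positions of these transcripts are on GRCh38.

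Toledo cells were used to see where SU-DHL-5 differed from another DLBCL line. Of the 8718 genes described in both lines, 2640 rose (30.3%) and 3663 fell (42.0%) in Toledo. Of the 155 genes of this set that rose at least 2 times in SU-DHL-5, 147 rose in Toledo, 1 fell and 7 overlapped. Of the 398 that fell at least 2 times, 376 fell in Toledo, 11 rose and 11 overlapped. A further 16 genes with such a rise and 187 with such a fall were below 1 RPKM in Toledo.

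Opposite directions were seen for 427 genes rising in SU-DHL-5 but falling in Toledo and for 179 with the reverse, and in no case was the difference between lines tested. EGR1 was one of the latter, with a log2 ratio of 1.37 in Toledo and −0.60 in SU-DHL-5. IRF8, a factor of germinal center B cells, had 0.09 in SU-DHL-5 and −3.09 in Toledo, where it went from 3.76 and 4.21 to 0.388 and 0.368 RPKM. INSIG1 rose in both, with log2 ratios of 1.45 and 0.31, while the median of the cholesterol and fatty acid list stood at 0.25 in SU-DHL-5 against −0.07 for Toledo. CD27, at 0.0429 and 0 RPKM in Toledo with DMSO and 0.0932 and 0.0939 with JQ1, was too low there for a comparison. CD27, EGR1 and IRF8 were taken up here after their values were seen.

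**Figure D5:**
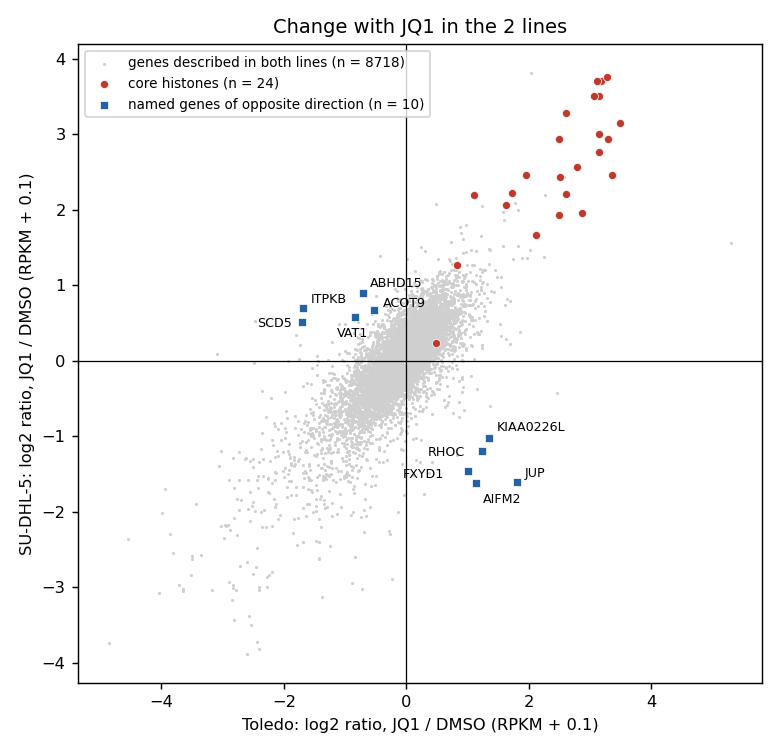
Log2 ratio of JQ1 over DMSO in Toledo (x axis) and SU-DHL-5 (y axis), both from RPKM + 0.1, for the 8718 genes described in both lines (gray), with core histones in red and 10 genes of opposite direction in blue. Histone genes lie in the upper right, and JUP, with −1.61 in SU-DHL-5 and 1.81 in Toledo, lies farthest into the lower right of the blue squares.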

How the data were processed

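RNA was sequenced from SU-DHL-5 and Toledo cells after DMSO or JQ1, with libraries made by a stranded mRNA kit. The RPKM values, per gene and per transcript, were deposited by the authors and are normalized for length and mapped reads. The submitters' processing notes name CASAVA 2.0 and GRCh38. The aligner, counter and annotation are not given in the sources used here. Each condition was 1 sample with 2 libraries, so no test was run. Whole reads were recovered from the RPKM steps for 99.99% of genes with a value, within 0.02 reads, and gave between 14617583 and 16980339 mapped reads per SU-DHL-5 library. They served depth and the exact binomial intervals (95%), which cover counting error only, and no count test was run on them.

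Genes with a mean of at least 1 RPKM in either condition were kept, and ratios used log2(RPKM + 0.1). Genes were named when in one of the gene lists, among the 20 widest gaps between nearest libraries in each direction, among the 5 widest at 100 RPKM or more, among 8 genes by isoform share, or among 5 in each direction of opposite change in Toledo. The members and lists were chosen with earlier results of these data known. The 19 small nucleolar RNA host genes and 24 microRNA host genes listed were at 0. A promoter check of interferon-stimulated genes was set aside, since 73.3% of those described had a window, against 83.3% of all genes described. Some genes and gene lists are not reported here. Alternatives changed the filter, pseudocount, scaling, table and library. The scripts ran on pandas 2.3.3 and numpy 2.4.6 under Python 3.11.15, with scipy 1.17.1 for intervals and matplotlib 3.10.9 for plots. The counting rule was run on simulated libraries with large changes and counting error only. That run could not show how the rule treats small changes or further spread between libraries.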

Additional observations from a re-analysis of the deposited data

Results flagged for a closer look

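The genes below moved in opposite directions in the 2 lines, with all 4 libraries of each line apart by treatment. None of these differences was tested. Of those that rose in SU-DHL-5 and fell in Toledo, ITPKB, a kinase of inositol trisphosphate, had log2 ratios of 0.69 and −1.68, a difference of 2.37. The desaturase SCD5 had 0.52 and −1.70, a difference of 2.22. ABHD15 had 0.90 and −0.71, a difference of 1.61, VAT1 had 0.57 and −0.84, a difference of 1.41, and the thioesterase ACOT9 had 0.66 and −0.52, a difference of 1.19.

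Of those that fell in SU-DHL-5 and rose in Toledo, JUP, the junction protein plakoglobin, had log2 ratios of −1.61 and 1.81, a difference of −3.42. AIFM2, which protects membranes from lipid peroxidation, had −1.62 and 1.13, a difference of −2.75. RHOC had −1.20 and 1.23, a difference of −2.43. FXYD1 had −1.46 and 1.00, a difference of −2.46, from 0.974 and 1.33 RPKM with DMSO and 0.488 and 0.220 with JQ1 in SU-DHL-5. KIAA0226L had −1.03 and 1.35, a difference of −2.38.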

How the results depend on the processing

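The counts of genes that rose and that fell stayed within 1.5 times of those reported under each alternative run. The 171 genes that rose at least 2 times became 89 with a minimum of 5 RPKM, 81 with a pseudocount of 1 RPKM and 107 when the nearest libraries had to be 2 times apart. The 585 that fell at least 2 times became 965 with no minimum, 273 with a minimum of 5 RPKM and 350 with a pseudocount of 1 RPKM. The 269 isoform shares became 30 with a minimum of 20 RPKM and 1379 with a limit of 10 points. The nearest-library rule and the counts from 1 library alone were chosen after seeing the data. Of the list medians, 3 changed sign, to −0.02 for the BCL2 family and −0.03 for glycolysis in library 2 alone and to 0.07 for cytosolic ribosomal proteins in library 1 alone. Another 44 of the 173 values for the 35 list medians under the alternatives moved by more than the spread between libraries. So did 119 of 916 values for the 229 genes named. None of the values for genes changed sign where the libraries did not overlap. The causes were not tested. No paired analysis was possible because there was 1 sample per condition and no comparison was tested. Depth limits genes near 1 RPKM, and 2 of the genes that rose at least 2 times had under 20 reads over the 4 libraries.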
